A study of Mus musculus with 80 samples.

Results

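Dusp1, Dusp2, Dusp4, Dusp5, Dusp6 and Dusp10 encode dual-specificity phosphatases of MAP kinases, and Spry1 and Spry2 encode Sprouty proteins. The 8 genes were chosen by symbol, and all 8 were listed among the 15919 genes of the sort comparison and the 16000 genes of the cell preparation comparison. MAP kinase cascades carry signals from receptors and stress to the nucleus through ERK, JNK and p38. Dusp1, Dusp2, Dusp4 and Dusp5 are inducible phosphatases of the nucleus, Dusp6 is a cytoplasmic phosphatase with a preference for ERK, Dusp10 prefers p38 and JNK, and the Sprouty proteins restrain signalling from receptor tyrosine kinases to Ras and ERK. Several of these transcripts are made in response to the pathway that they switch off, and in macrophages Dusp1 is known for limiting p38 and the output of inflammatory cytokines.

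The libraries came from brain hemispheres of Cx3cr1(Jung)-cre/Ert2+;NuTRAP+ mice, or from a whole brain per Dounce sample. The mice were given tamoxifen at about 3 months of age (100 mg/kg per injection). Cre driven from the Cx3cr1 locus then switched on an eGFP-tagged ribosomal protein in Cx3cr1-expressing cells, which include microglia and border macrophages, and every group carried both alleles and received tamoxifen. TRAP is the RNA pulled down with the tagged ribosomes, and Input is the RNA of the same lysate before the pull-down. The question was which changes arise while the cells are being isolated.

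In the cell preparation comparison, with 4 mice per group, Tissue was brain homogenized directly, Cell (-) Inhibitors was an enzymatic and mechanical suspension with a warm step, Cell (+) Inhibitors was the same suspension with actinomycin D, triptolide and anisomycin present during the warm step, and Dounce was a mechanical suspension prepared at 4°C. Actinomycin D and triptolide block transcription and anisomycin blocks translation. The same 4 mice gave the suspensions without and with inhibitors, whereas the Tissue mice and the Dounce mice were others, so that cohort and preparation cannot be told apart in any contrast with Tissue or Dounce of this comparison. The sort comparison held Tissue, Cell (an unsorted suspension without inhibitors), autoMACS and FACSAria groups of 4 mice, an autoMACS to Tyto group of 3 and a Tyto group of 5. Its Tissue and Cell libraries came from the same mice, and its sorted mice were others. Of these, 3 mice were shared by autoMACS and autoMACS to Tyto, and 3 by FACSAria and Tyto. The Tissue libraries of the cell preparation comparison carry the numbers of those same Tissue mice. They were taken as further libraries of them, so the Tissue groups are not independent of each other. All mouse identities in both comparisons were read from the numbers in the sample titles.

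Total counts per library ranged from 7129464 to 20168116 in the 48 libraries of the sort comparison and from 2471448 to 14650287 in the 32 libraries of the cell preparation comparison. Dounce-TRAP was the shallowest group, with 2471448 to 4724538 counts. Levels are given as CPM, the usual depth-scaled count of a gene, here with TMM-scaled library sizes. A gene was called when its edgeR quasi-likelihood test gave a Benjamini-Hochberg adjusted p under 0.1 over all genes tested and its fold change exceeded 2. The 8 genes all passed the filter on low counts in every set of libraries. In TRAP of the cell preparation comparison, however, Dusp4 passed it only through Tissue, where it was highest, and in either fraction of the sort comparison only through Tissue and Cell. Dusp2 passed it in TRAP of the sort comparison through every group but Tissue, where it was lowest.

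The 12 microglial markers, all detected in every library, describe the cell content of the groups. Their summed level in TRAP lay between 12516 and 14592 CPM in Tissue, between 50898 and 56932 CPM in Cell (-) Inhibitors, between 54494 and 58058 CPM in Cell (+) Inhibitors and between 42851 and 46831 CPM in Dounce, with Csf1r as the most abundant gene over these libraries. The 8 neuronal markers summed to between 6219 and 7275 CPM in Tissue-TRAP, against 80.4 to 186 CPM in Cell-TRAP (-) Inhibitors, 49.1 to 163 CPM in Cell-TRAP (+) Inhibitors and 989 to 1749 CPM in Dounce-TRAP. Snap25 was their most abundant gene. Every contrast with Tissue-TRAP therefore moved together with the microglial and neuronal content of the libraries, and the part of that content in the values below was not tested. The 8 endothelial markers were also called higher in Cell-TRAP (-) Inhibitors than in Tissue-TRAP, 8 of 8 with a median log2 fold change of 2.23. In such bulk libraries, fewer cells of a type and less RNA per cell cannot be told apart.

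Dusp1, Dusp2, Dusp6 and Spry1 were higher, and Dusp4, Dusp5, Dusp10 and Spry2 lower, in Cell-TRAP (-) Inhibitors than in Tissue-TRAP. Of the 8 genes, 4 were called higher, beside 22.3% of the 14723 genes tested, and 4 were called lower, beside 30.8%. Dusp4, among the lower, passed the filter only through Tissue-TRAP, where it was highest, so its call is no support on its own. Dusp1 rose the most, by 85.0-fold. In log2 units the median was 0.49 over the 8 genes and -0.13 over all genes tested. All 8 calls held when each library in turn was left out, but without Cell-TRAP (-) Inhibitors replicate 4 the log2 fold change was 2.71 for Dusp2 (from 3.32) and -3.43 for Dusp5 (from -2.57).

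Dusp1 was at 25.6, 25.6, 27.0 and 21.5 CPM in the 4 Tissue-TRAP libraries. In Cell-TRAP (-) Inhibitors it reached 1636, 2038, 2087 and 2714 CPM. Its lowest suspension library lay far above its highest Tissue library, and the log2 fold change was 6.41 (SE 0.276, adjusted p = 6.15e-13). The gene, an immediate-early phosphatase, has identifier 19252 and lies at chr17:26505591-26508472 on the minus strand of mm10. Its promoter holds a cAMP response element (TGACGTCA, searched on both strands of the RefSeq window from 250 bases before to 50 bases after the start, GRCm38.p6). The element begins at position -143 from the start and is shown because Dusp1 had the largest induction of the 8 genes. The capitals mark the element.
Dusp1, chr17:26508597-26508626, minus strand: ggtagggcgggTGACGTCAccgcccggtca
The same letters occur in 1.79% of the 32851 promoter windows. Of the 7 genes with a window (Dusp4 was not matched), Dusp1 was the only one to hold them, and none held the AP-1 letters TGANTCA, which occur in 7.81% of the windows.

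Dusp6, the cytoplasmic ERK phosphatase (identifier 67603, chr10:99263231-99267489, plus strand), was at 106, 92.3, 114 and 96.4 CPM in Tissue-TRAP. It was at 1068, 1377, 1180 and 1290 CPM in Cell-TRAP (-) Inhibitors. These groups did not overlap, and the log2 fold change was 3.59 (SE 0.112, 12.0-fold, adjusted p = 1.84e-14). Spry1, a Sprouty gene at chr3:37639950-37644599 on the plus strand (identifier 24063), moved from 7.05, 6.82, 9.33 and 9.44 CPM to 46.6, 50.2, 61.3 and 82.04 CPM. Its log2 fold change was 2.88 (SE 0.195, 7.34-fold, adjusted p = 1.70e-10), again without overlap.

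Dusp2, a phosphatase of activated immune cells (identifier 13537, chr2:127336159-127338377, plus strand), was scarce throughout. Tissue-TRAP held 0.516, 1.26, 1.22 and 1.26 CPM of it, and Cell-TRAP (-) Inhibitors held 7.23, 4.75, 8.95 and 21.6 CPM. The groups were apart, but the suspension libraries of Dusp2 themselves ranged widely. The log2 fold change was 3.32 (SE 0.585, adjusted p = 5.32e-05).

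The other four genes went the opposite way. Spry2 (identifier 24064, chr14:105891947-105896819, minus strand) was at 33.3, 25.6, 23.8 and 27.9 CPM in Tissue-TRAP and at 9.57, 6.72, 6.61 and 6.93 CPM in Cell-TRAP (-) Inhibitors. Dusp10 (identifier 63953, chr1:184034461-184075636, plus strand) was at 14.7, 7.66, 14.8 and 13.4 CPM in Tissue-TRAP and at 2.76, 1.98, 3.43 and 3.79 CPM in the suspension. Neither gene overlapped between these groups. The log2 fold change was -1.89 (SE 0.282) for Spry2 and -2.08 (SE 0.372) for Dusp10.

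Dusp4 (identifier 319520, chr8:34807610-34819894, plus strand) was at 8.86, 6.19, 7.91 and 7.19 CPM in Tissue-TRAP and at 0.921, 0.396, 1.17 and 0.907 CPM in the suspension, with a log2 fold change of -3.13 (SE 0.515). Dusp5 (identifier 240672, chr19:53529318-53541322, plus strand) was at 15.2, 12.5, 10.9 and 13.6 CPM in Tissue-TRAP and at 0.851, 0.949, 1.84 and 5.19 CPM in the suspension, with a log2 fold change of -2.57 (SE 0.471). Both genes were separated between the groups. Dusp5 is known as a target of serum response factor, whose CArG box lies in its promoter in 2 neighbouring copies, the first beginning at position -82 from the RefSeq start (base 53529145, upstream of the start in the deposited annotation). The stretch is shown to set the promoter of a gene that was lower in the suspension beside that of Dusp1, and the capitals mark the boxes.
Dusp5, chr19:53529058-53529087, plus strand, GRCm38.p6: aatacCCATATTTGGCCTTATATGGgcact
A CArG box occurs in 1.63% of the promoter windows, and among the 7 genes with a window only Dusp5 held one. A match of letters is a description of the window and not a mapped site.

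**Figure D1:**
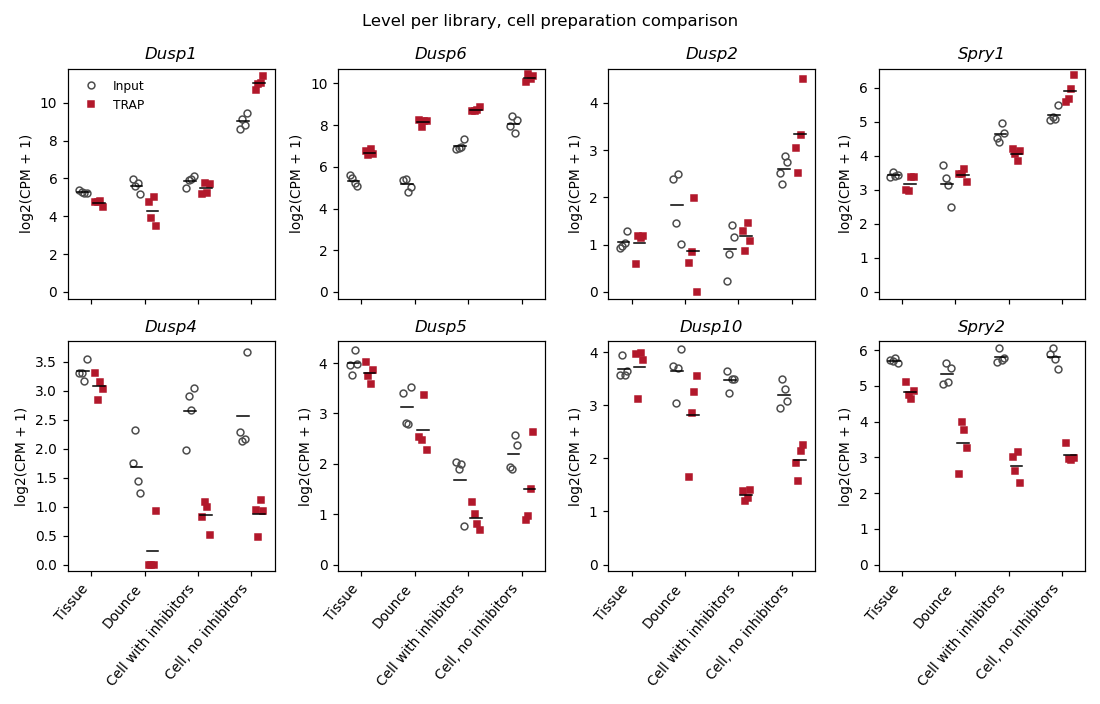
Level of each of the 8 genes, as log2(CPM + 1), in every library of the cell preparation comparison, with a point per mouse (open circles for Input, red squares for TRAP) and a bar at each mean. Dusp1, Dusp2, Dusp6 and Spry1 are highest in the suspension without inhibitors, where Dusp1 in TRAP lies between 1636 and 2714 CPM, while Dusp4, Dusp5, Dusp10 and Spry2 in TRAP are highest in Tissue.

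Per length, the order of the genes also changed between these groups. Divided by the longest coding transcript, Tissue-TRAP held 36.5 CPM per kilobase of Dusp6, 13.2 of Spry2 and 12.5 of Dusp1. Cell-TRAP (-) Inhibitors held 1065 CPM per kilobase of Dusp1, 439 of Dusp6 and 21.6 of Spry1, and the other five genes lay between 0.310 (Dusp4) and 6.58 (Dusp2). Dusp1 thus went from the third to the first place, and Spry2 fell behind Spry1 and Dusp2.

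The contrasts with Tissue depended on what the libraries were scaled to. Scaling to the 12 microglial markers in place of TMM moved the median over all genes of this contrast from -0.13 to -2.15 log2 units. The log2 fold changes of Dusp1, Dusp6 and Dusp2 were then 4.38, 1.56 and 1.32, still called, and that of Spry1 was 0.86, below the fold threshold. Those of Dusp4, Dusp5, Dusp10 and Spry2 lay between -5.15 and -3.91. Per 1000 CPM of the markers, Dusp1 was at 1.89 ± 0.146 CPM (SD, n = 4) in Tissue-TRAP and 39.5 ± 8.78 CPM (SD, n = 4) in Cell-TRAP (-) Inhibitors.

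With inhibitors, the genes that were higher in the suspension (Dusp1, Dusp2, Dusp6 and Spry1) were lower. In Cell-TRAP (+) against Cell-TRAP (-) Inhibitors, 4 of the 8 genes were called lower, beside 0.632% of the 14723 genes tested. None was called higher, beside 0.00679%. The median was -1.38 log2 units for the 8 genes and -0.03 for all genes. The median log2 fold change was 0.08 for the 8 neuronal markers and 0.09 for the 12 microglial markers, with 0 called in either list by edgeR or DESeq2 and 0 and 2 at an unadjusted p under 0.05. The 6 oligodendrocyte markers had a median of -0.82 (0 called, 5 at an unadjusted p under 0.05), with sums of 321 to 1165 CPM without and 318 to 464 CPM with inhibitors, and their part was not tested. Scaled to the microglial markers, the same genes were called, with Dusp1 at -5.64.

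Dusp1 lay at 35.8, 53.8, 36.7 and 51.4 CPM with inhibitors, so every library was below 1636 CPM, its lowest value without them. The log2 fold change was -5.58 (SE 0.264, 47.7-fold lower, adjusted p = 6.12e-11). Dusp6 was at 414, 404, 423 and 470 CPM with inhibitors, and its log2 fold change was -1.52 (SE 0.103, 2.87-fold lower, adjusted p = 1.13e-08). Its libraries with and without inhibitors were well apart. Spry1 was at 17.4, 15.7, 13.3 and 16.8 CPM with inhibitors, also without overlap, and its log2 fold change was -1.92 (SE 0.185, 3.79-fold lower, adjusted p = 1.90e-06). Dusp2 was at 1.45, 0.828, 1.73 and 1.12 CPM, all below its lowest library without inhibitors, with a log2 fold change of -3.03 (SE 0.570, adjusted p = 0.00616), or -2.43 without Cell-TRAP (-) Inhibitors replicate 4.

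The genes that were lower in the suspension showed no called inhibitor effect. The log2 fold change was -0.04 for Dusp4 (95% interval -1.10 to 1.01), -1.23 for Dusp5 (-2.23 to -0.22, adjusted p = 0.431), between -1.77 and -0.23 by its 95% interval for Dusp10 (adjusted p = 0.378) and -0.31 for Spry2 (-0.87 to 0.25). Dusp5 was at 1.36, 1.01, 0.741 and 0.604 CPM with inhibitors. Those values overlapped the libraries without inhibitors, where the highest was 5.19 CPM, and the log2 fold change of Dusp5 was -0.37 without that library, Cell-TRAP (-) Inhibitors replicate 4. Changes of 2-fold lie inside the intervals of Dusp4, Dusp5 and Dusp10, but not of Spry2.

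**Figure D2:**
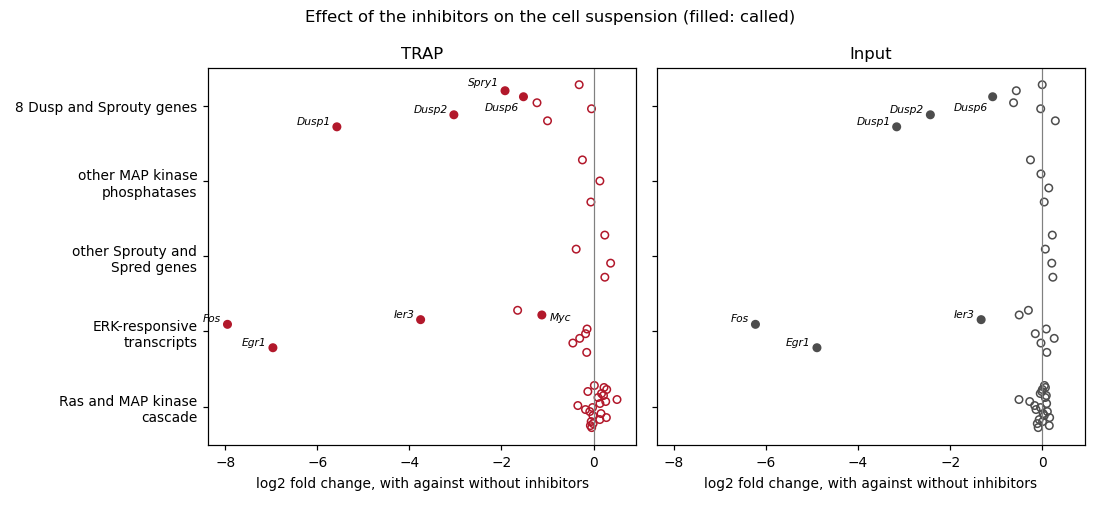
Log2 fold change with against without inhibitors for each gene of 5 lists, in TRAP (left) and Input (right), with filled points for called genes. In TRAP the called points are 4 of the 8 Dusp and Sprouty genes, with Dusp1 at -5.58, and 4 ERK-responsive transcripts, with Fos at -7.95, while the genes of the Ras and MAP kinase cascade lie near 0.

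Against Tissue-TRAP, which the foregoing contrast with Cell-TRAP (-) Inhibitors shared as its control, Cell-TRAP (+) Inhibitors had 1 gene called higher (21.6% of all genes) and 4 called lower (31.2%). Dusp6 was the gene called higher, with a log2 fold change of 2.07 (SE 0.105, adjusted p = 4.19e-12), and its groups did not overlap. Dusp1 (0.83, adjusted p = 0.00335) and Spry1 (0.95, adjusted p = 1.99e-04) stayed under the fold threshold although all of their libraries lay above those of Tissue. Spry1 passed it, at 1.02 to 1.03, without Tissue-TRAP replicate 3 or 4 or without Cell-TRAP (+) Inhibitors replicate 3, and also when only these groups were fitted. Dusp2, a scarce transcript in both groups, was at 0.28 (SE 0.603), with overlapping libraries. Dusp4, Dusp5, Dusp10 and Spry2 were at -3.18, -3.80, -3.08 and -2.20. Of these, Dusp4 again passed the filter only through Tissue-TRAP.

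Scaled to the microglial markers, these signs turned. Dusp1 was then at -1.26, Dusp2 at -1.79 and Spry1 at -1.13, all called lower, and Dusp6 at -0.02 was not called. On that scale 7 of the 8 genes were called, beside 80.1% of all genes. The median over all genes was -2.22 log2 units. Per 1000 CPM of the markers, Dusp6 was at 7.75 ± 0.316 CPM in Tissue-TRAP and 7.65 ± 0.7101 CPM in Cell-TRAP (+) Inhibitors (SD, n = 4 each). Without inhibitors it was at 22.9 ± 1.92 CPM (SD, n = 4).

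**Figure D3:**
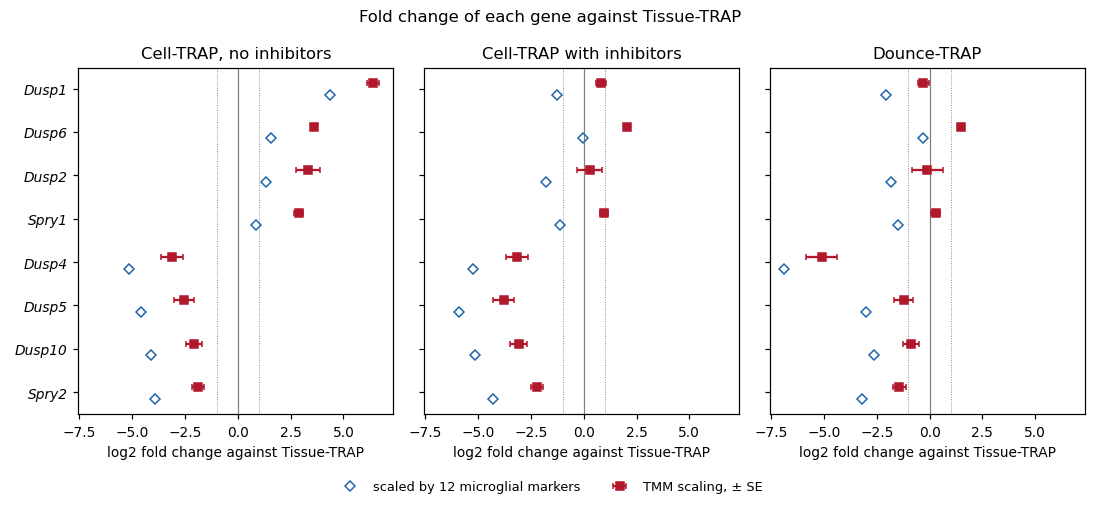
Log2 fold change of each gene against Tissue-TRAP for the 3 suspensions, with red squares and SE bars for TMM scaling, open blue diamonds for scaling to the 12 microglial markers, and dotted lines at 2-fold. Marker scaling shifts every gene to the left; for Cell-TRAP (+) Inhibitors Dusp1, Dusp2, Dusp6 and Spry1 pass from above to below 0, and for Dounce-TRAP Dusp6 and Spry1 do so.

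In Dounce-TRAP, prepared cold throughout, Dusp6 was higher than in Tissue, and the libraries of Dusp1 and Spry1 overlapped those of Tissue. Against Tissue-TRAP 1 gene was called higher (23.2% of all genes) and 3 were called lower (27.1%). Dusp1 was at 26.4, 14.2, 31.7 and 10.1 CPM, which overlapped Tissue, and its log2 fold change was -0.31 (95% interval -0.81 to 0.20). Spry1 was at 10.1, 10.2, 11.2 and 8.34 CPM, also overlapping, with 0.28 (-0.13 to 0.70). Dusp6 was at 305, 239, 292 and 294 CPM, above every Tissue library, with 1.47 (SE 0.104, adjusted p = 6.17e-10). Dusp2, with a library at 0, was not separable from Tissue at this depth (-0.10, SE 0.733, or -1.10 without Dounce-TRAP replicate 3). The paper reports the lowest RNA integrity for Dounce-Input. It also reports coverage leaning more to the 3' end in Tissue-TRAP and Dounce-TRAP than in the enzymatic suspensions. The part of RNA quality in the contrasts with Dounce was not tested.

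Spry2 (-1.43, SE 0.293) and Dusp5 (-1.23, SE 0.469, adjusted p = 0.0256) were called lower than in Tissue-TRAP. Dusp10, at 2.13, 6.19, 8.58 and 10.7 CPM in Dounce-TRAP, was not called (-0.89, SE 0.374). It was called when Tissue-TRAP replicate 2 (-1.07), Dounce-TRAP replicate 3 (-1.01) or replicate 4 (-1.19) was left out. Dusp4 was at 0 in 3 of 4 Dounce libraries and at 0.893 CPM in the other, 3 counts in all. It passed the filter only through Tissue-TRAP, and was called lower. Its pooled ratio to Tissue-TRAP was 0.0267 (95% counting interval 0.00548 to 0.0787), an interval that covers counting error only. Scaled to the markers, Dusp6 at -0.30 and Spry1 at -1.48 turned to the lower side, Dusp1 was at -2.07, Dusp2 at -1.84 and Dusp10 at -2.65, and 7 of the 8 genes were called, beside 72.8% of all genes. Per 1000 CPM of the markers, Dusp1 was at 0.462 ± 0.235 CPM in Dounce-TRAP against 1.89 ± 0.146 CPM in Tissue-TRAP (SD, n = 4 each), on this scale without overlap.

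Against Cell-TRAP (-) Inhibitors, Dounce-TRAP had 2 of the 8 genes called higher (20.7% of all genes) and 5 called lower (8.02%). Dusp1, Dusp2, Dusp6 and Spry1 were among the lower ones, with log2 fold changes of -6.71 (SE 0.288) for Dusp1, -3.41 (SE 0.665) for Dusp2, -2.12 (SE 0.106) for Dusp6 and -2.59 (SE 0.204) for Spry1. Dusp4 was the other (adjusted p = 0.0563), and its call was lost without Cell-TRAP (-) Inhibitors replicate 3 or without Dounce-TRAP replicate 1, 2 or 3. Its pooled ratio was 0.240 (95% counting interval 0.0475 to 0.748). Dusp5 (1.33, SE 0.492) and Dusp10 (1.19, SE 0.388) were called higher, but Dusp5 not without Dounce-TRAP replicate 3 (1.01) and Dusp10 not without replicate 4 (0.89). Dusp5 also missed the call when only these groups were fitted (1.37, adjusted p = 0.102). Without Cell-TRAP (-) Inhibitors replicate 4, Dusp5 was at 2.19 and Dusp2 at -2.80, and without Dounce-TRAP replicate 3 Dusp2 was at -4.42. Spry2 was at 0.46 (SE 0.298). Neuronal markers, 7 of 8 of them called, were higher in Dounce-TRAP in the same contrast (median 2.72), and endothelial markers, 8 of 8 called, were lower (-4.52). Their part in these values was not tested.

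The order of the preparations in TRAP, in CPM, differed between the genes. For Dusp1 it ran from Cell (-) Inhibitors (2119 ± 445 CPM) through Cell (+) Inhibitors (44.4 ± 9.52 CPM) to Tissue (24.9 ± 2.38 CPM) and Dounce (20.6 ± 10.1 CPM), and the last pair overlapped. Dusp6 ran from Cell (-) Inhibitors (1229 ± 134 CPM) through Cell (+) Inhibitors (428 ± 29.4 CPM) and Dounce (283 ± 29.7 CPM) to Tissue (102 ± 9.69 CPM), with no overlap between neighbours. Spry1 kept the order of Dusp6, with 60.02 ± 15.9, 15.8 ± 1.79, 9.96 ± 1.19 and 8.16 ± 1.42 CPM, and its Dounce and Tissue libraries overlapped. Spry2 ran from Tissue (27.6 ± 4.11 CPM) through Dounce (10.2 ± 4.42 CPM) and Cell (-) Inhibitors (7.46 ± 1.41 CPM) to Cell (+) Inhibitors (6.002 ± 1.82 CPM), where only Tissue was apart from its neighbour. Each value is a mean ± SD over 4 mice. Set to 1000 CPM of the microglial markers, Tissue came before Cell (+) Inhibitors and Dounce for Dusp1 (means of 1.89, 0.793 and 0.462 CPM), Dusp6 (7.75, 7.65 and 6.29 CPM) and Spry1 (0.6195, 0.282 and 0.223 CPM), with Cell (-) Inhibitors still first. On that scale Tissue (7.38 to 8.14 CPM) and Cell (+) Inhibitors (6.95 to 8.63 CPM) overlapped for Dusp6. Cell (+) Inhibitors and Dounce overlapped for Dusp1 and Spry1.

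In Input, Dusp1, Dusp2, Dusp6 and Spry1 were again higher in CPM in the suspension than in Tissue, a direction that depended on the scaling. Cell-Input (-) Inhibitors against Tissue-Input gave 4 of the 8 genes called higher (25.6% of 15753 genes) and 1 lower (19.1%). Dusp1 went from 41.1, 37.7, 36.9 and 36.2 CPM in Tissue-Input to 390, 572, 453 and 691 CPM. The groups were well apart, and the log2 fold change was 3.79 (SE 0.191). For Dusp6 it was 2.77 (SE 0.189), for Dusp2 2.23 (SE 0.501) and for Spry1 1.87 (SE 0.205). Dusp5 was the gene called lower (-2.03, SE 0.328). Spry2, at 51.3, 50.2, 53.8 and 48.5 CPM in Tissue-Input and 58.3, 65.5, 53.1 and 43.4 CPM in Cell-Input (-) Inhibitors, overlapped (0.11, SE 0.140). Dusp4 was not called (-0.69, SE 0.386) but was called, at -1.35, without replicate 4 of Cell-Input (-) Inhibitors.

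The cell content of Input moved with this contrast. The microglial markers summed to between 541 and 591 CPM in Tissue-Input and between 8963 and 13487 CPM in Cell-Input (-) Inhibitors, 12 of 12 called higher, and the neuronal markers, 8 of 8 called lower, to between 8262 and 8496 CPM and between 435 and 799.7 CPM. Per 1000 CPM of the microglial markers, Dusp1 was at 66.9 ± 3.61 CPM in Tissue-Input and 47.01 ± 9.37 CPM in Cell-Input (-) Inhibitors (SD, n = 4 each). In the same order Dusp6 was at 69.98 ± 11.003 and 23.99 ± 2.03 CPM, Spry1 at 17.3 ± 0.767 and 3.24 ± 0.551 CPM and Dusp2 at 1.93 ± 0.4657 and 0.482 ± 0.174 CPM. These 4 genes were lower in the suspension on this scale, without overlap. The means of the other 4 were lower too, such as Spry2 at 89.9 and 4.99 CPM. Any gene that rose less than the marker sum falls on this scale, and no value over all genes was computed on it in Input. The values therefore show no fall of these genes in particular, and none was tested. The same limit holds for every value per marker that involves Input below.

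With inhibitors, 3 of the 8 genes were called lower in Input (0.311% of all genes) and 0 higher (0%). Dusp1 was at 44.2, 60.5, 61.9 and 68.7 CPM with inhibitors, and its log2 fold change was -3.16 (SE 0.184, adjusted p = 1.26e-09). Dusp6 was at -1.08 (SE 0.177) and fell to -0.94, below the threshold, without replicate 2 of Cell-Input (-) Inhibitors. Dusp2 was at -2.43 (SE 0.499, adjusted p = 0.0323), and its call was lost without Cell-Input (-) Inhibitors replicate 3 or without Cell-Input (+) Inhibitors replicate 1 or 2. Spry1 was at -0.56 (SE 0.192, adjusted p = 0.981) and not called. Its libraries still did not overlap, with 22.1, 20.1, 30.5 and 24.4 CPM with inhibitors and 32.1, 34.5, 33.01 and 43.8 CPM without.

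In Dounce-Input against Tissue-Input, 1 of the 8 genes was called higher (28.7% of all genes) and 1 lower (21.4%). Dusp2 was the higher one (1.39, SE 0.517), with 4.24, 1.74, 4.602 and 1.02 CPM against 0.904, 0.964, 1.05 and 1.46 CPM in Tissue-Input. Its lowest Dounce library lay inside the Tissue range, and per 1000 CPM of the markers it was lower on average in Dounce-Input, at 1.06 ± 0.775 against 1.93 ± 0.4657 CPM (SD, n = 4 each). Dusp4 was the lower one (-1.88, SE 0.423), with no overlap. Dusp1 (0.37, SE 0.179) and Dusp6 (-0.16, SE 0.187) were not called. Set to 1000 CPM of the markers, Dusp1 was at 17.2 CPM in Dounce-Input and 66.9 CPM in Tissue-Input, Dusp6 at 12.1 and 69.98 CPM and Spry1 at 2.96 and 17.3 CPM, without overlap. Of the microglial markers 12 of 12 were called higher, and of the neuronal markers 6 of 8 lower, in this contrast. Dusp5 (-0.90, SE 0.314) was called without Dounce-Input replicate 1 (-1.01) or 4 (-1.05).

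Whether the inhibitor effect differed between TRAP and Input was tested directly in the 16 suspension libraries of both fractions. For 2 of the 8 genes it was stronger in TRAP, beside 0.221% of the 14930 genes tested, and for 0 it was weaker, beside 0.00670%. Dusp1 had an interaction of -2.42 log2 units (SE 0.282, adjusted p = 5.47e-04) and Spry1 of -1.37 (SE 0.241, adjusted p = 0.0170). Dusp6, at -0.46 (SE 0.218), and Dusp2, at -0.61 (SE 0.716), were not called. With single libraries left out, the value of Dusp2 ranged from -0.95 to -0.01. Dusp10 was at -1.29 (SE 0.317, adjusted p = 0.105), just short of a call. It was called by the DESeq2 test (-1.31, adjusted p = 0.0139), with at least 10 counts in every library (-1.28, adjusted p = 0.0596), and without replicate 2 of Cell-Input (-) Inhibitors or of Cell-TRAP (-) Inhibitors.

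Within a suspension, TRAP was also compared with its own Input. Without inhibitors, 4 of the 8 genes were called higher in TRAP (18.6% of all genes) and 3 lower (31.0%). The higher ones were Dusp6 (2.55, SE 0.162), Dusp1 (2.39, SE 0.203), Dusp2 (1.41, SE 0.437) and Spry1 (1.12, SE 0.167), and the lower ones were Spry2 (-2.50, SE 0.192), Dusp4 (-2.35, SE 0.472) and Dusp10 (-1.10, SE 0.218). The calls of Dusp2, Spry1 and Dusp10 were each lost without at least 1 library: Dusp2 and Spry1 at 0.81 and 0.94 without Cell-TRAP (-) Inhibitors replicate 4, Spry1 at 0.97 without Cell-Input (-) Inhibitors replicate 3, and Dusp10 at -0.97 and -0.95 without replicate 2 of Input or TRAP. Spry1 also fell just under the fold threshold with the size factors of DESeq2 (0.996), by the DESeq2 test (0.996) and with at least 10 counts in every library (0.898). Dusp4 was at -1.69 without Cell-Input (-) Inhibitors replicate 4. Dusp5 was at -0.37 (SE 0.515). It was called lower, at -1.21, without Cell-TRAP (-) Inhibitors replicate 4, the library with its highest value.

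All 12 microglial markers were called higher in TRAP than in Input in the same libraries (median log2 fold change 2.59), and all 8 neuronal markers lower (-2.12). Per 1000 CPM of the microglial markers, Dusp1 was at 39.5 ± 8.78 CPM in TRAP and 47.01 ± 9.37 CPM in Input, and Dusp6 at 22.9 ± 1.92 and 23.99 ± 2.03 CPM, with overlapping libraries. Spry1 was at 1.12 ± 0.321 and 3.24 ± 0.551 CPM, lower in TRAP without overlap, and Dusp2 at 0.201 ± 0.147 and 0.482 ± 0.174 CPM, with overlap (SD, n = 4 each). None of the 4 genes had the higher mean in TRAP on this scale.

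With inhibitors, 1 gene was called higher in TRAP (16.7%) and 3 lower (30.4%). Dusp6 was the higher one (2.10, SE 0.160), and Spry2 (-2.82, SE 0.198), Dusp10 (-2.39, SE 0.234) and Dusp4 (-2.37, SE 0.477) were lower. DESeq2 also called 8 of 8 neuronal, 8 of 8 astrocyte, 6 of 6 oligodendrocyte and 4 of 4 mural markers lower in TRAP. Their part in these values was not tested. With inhibitors, Dusp1 was at -0.04 (SE 0.200) and Spry1 at -0.25 (SE 0.174), with intervals that include 0. Dusp2 (0.80, SE 0.553) was called without Cell-Input (+) Inhibitors replicate 3 (1.21), and Dusp5 (-0.98, SE 0.565) without Cell-Input (+) Inhibitors replicate 4 (-1.28) or Cell-TRAP (+) Inhibitors replicate 1 (-1.22). Dusp5 was also called with the size factors of DESeq2 (-1.11), by the DESeq2 test (-1.12) and when only these groups were fitted (-1.03). The microglial markers summed to between 60426 and 64234 CPM in TRAP of this group and between 9295 and 13141 CPM in its Input when both fractions were scaled together, and per 1000 CPM of the markers Dusp6 was at 7.65 ± 0.7101 CPM in TRAP and 10.6 ± 0.5596 CPM in Input (SD, n = 4 each).

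In intact tissue only Dusp6 was called higher in TRAP than in Input (1.39, SE 0.133, adjusted p = 1.05e-07), 1 gene of 8 beside 9.02% of the 15572 genes tested, and 0 were called lower (3.26%). Spry2 (-0.70, adjusted p = 1.29e-05) and Dusp1 (-0.43, adjusted p = 0.0691) passed the p threshold on the lower side but not the fold threshold. In intact tissue DESeq2 called 12 of 12 microglial and 7 of 8 endothelial markers higher in TRAP, and 6 of 6 oligodendrocyte markers lower. The part of these cells in the tissue values was not tested. In the unsorted Cell libraries of the sort comparison, 4 were called higher (14.9%) and 3 lower (33.2%). There Dusp1 was at 2.21 (SE 0.177), Dusp6 at 2.44 (SE 0.133), Dusp2 at 1.26 (SE 0.356) and Spry1 at 1.17 (SE 0.114), while Spry2 was at -2.49 (SE 0.107), Dusp4 at -2.41 (SE 0.312) and Dusp10 at -1.46 (SE 0.178). Without Cell-TRAP replicate 1, Dusp2 dropped to 0.84 and was not called, and Dusp5 (-0.76, SE 0.455) was called at -1.38. Dusp5 was also called without Cell-Input replicate 3 (-1.05). Per 1000 CPM of the markers, Dusp6 was at 7.09 ± 0.752 CPM in Tissue-TRAP and 64.7 ± 15.3 CPM in Tissue-Input, and at 26.8 ± 2.502 CPM in Cell-TRAP and 30.3 ± 3.73 CPM in Cell-Input (SD, n = 4 each). The means of the other genes called higher in the unsorted Cell libraries were also lower in TRAP than in Input on that scale. Dusp1 was at 36.99 ± 8.80 and 48.6 ± 9.95 CPM and Dusp2 at 0.0999 ± 0.0515 and 0.267 ± 0.159 CPM, both with overlapping ranges, and Spry1 was at 1.20 ± 0.191 and 3.25 ± 0.241 CPM without overlap; no test was run on these values. In that contrast 12 of 12 microglial markers were called higher (median log2 fold change 2.65), and 8 of 8 astrocyte (-2.43), 6 of 6 oligodendrocyte (-4.90) and 7 of 8 neuronal markers (-2.10) lower. Their part in the values was not tested.

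The Cell-against-Tissue effect itself differed between TRAP and Input for 7 of the 8 genes. It was more positive in TRAP for 4 genes (5.23% of all genes) and more negative for 3 (32.7%). The 12 microglial markers, all called lower, had a median of -1.98 in the same test, and the 8 neuronal markers, also all called lower, one of -1.99. The interaction was 2.64 (SE 0.2501, adjusted p = 8.10e-08) for Dusp1, 1.91 (SE 0.561) for Dusp2, 1.11 (SE 0.174) for Spry1 and 1.05 (SE 0.183) for Dusp6. For Dusp4, Spry2 and Dusp10 it was -2.41 (SE 0.402), -1.79 (SE 0.143) and -1.64 (SE 0.239). Dusp6 fell just under the fold threshold, to between 0.96 and 0.99, when Tissue-Input replicate 1, Cell-Input replicate 1 or 4, or Tissue-TRAP replicate 2 or 4 was left out. Dusp5 (-0.64, SE 0.593) was called, at -1.26, when Cell-TRAP replicate 1 was left out, and for none of the other libraries left out singly.

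The sort comparison held the suspension contrast in other libraries, with Tissue mice that the cell preparation comparison shares. Cell-TRAP against Tissue-TRAP there gave 4 of the 8 genes called higher (25.1% of 14953 genes) and 4 lower (29.3%). Dusp1 went from 22.5, 24.4, 18.6 and 19.6 CPM to 1244, 2111, 1500 and 1460 CPM, without overlap (6.22, SE 0.159). Dusp6 was at 3.98 (SE 0.158), Spry1 at 3.05 (SE 0.220) and Dusp2, which did not pass the filter through Tissue, at 2.78 (SE 0.502). Dusp4, Dusp5, Dusp10 and Spry2 were at -2.69, -2.02, -1.73 and -1.42, with Dusp5 at -2.65 without Cell-TRAP replicate 1. Scaled to the microglial markers, Spry1 at 0.99 and Dusp2 at 0.75 were no longer called. That left 6 of the 8 genes called, beside 77.5% of all genes. Neuronal markers summed to between 5194 and 5876 CPM in Tissue-TRAP and between 114 and 319 CPM in Cell-TRAP, and their part was not tested.

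In TRAP, none of Dusp1, Dusp2, Dusp6 and Spry1 was called between sorted and unsorted suspensions, whereas Spry2 and Dusp4 were lower after sorting. Against Cell-TRAP, the mean of the 4 sorted groups had 0 of the 8 genes called higher (0.836% of all genes) and 2 called lower (23.6%). Dusp6 was at -0.05 (95% interval -0.27 to 0.16) and Spry1 at -0.03 (-0.33 to 0.26). Dusp1 was at 0.37 (0.17 to 0.57, adjusted p = 0.00311), higher but by less than 2-fold. In CPM, Dusp1 lay between 1977 and 2108 in autoMACS, at 2013.97, 2476 and 2315 in autoMACS to Tyto, between 1702 and 2074 (median 1783) in Tyto and between 1885 and 2625 in FACSAria. All sorted libraries overlapped the Cell-TRAP range of 1244 to 2111 CPM or lay above it.

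Spry2 and Dusp4 were the genes called lower in the sorted groups. Spry2 was at 8.56, 11.1, 10.2 and 9.11 CPM in Cell-TRAP and at 1.30 CPM or less in every sorted TRAP library, with a log2 fold change of -3.92 (SE 0.2502, adjusted p = 8.55e-13). Dusp4, which passed the filter only through Tissue and Cell, was at 2.00, 0.717, 0.803 and 0.604 CPM in Cell-TRAP and at 0.00 to 1.09 CPM after sorting, with -2.27 (SE 0.562, adjusted p = 0.00143). Dusp4 overlapped and Spry2 did not. Neuronal markers summed to 114 to 319 CPM in Cell-TRAP and to 3.19 to 9.16 CPM in the sorted TRAP libraries, where up to 5 of the 8 were at 0, and astrocytic markers to 1638 to 1847 CPM and 127 to 224 CPM. Their part in these differences was not tested, and cohort and sort cannot be told apart, since the sorted mice were others. With the sorted libraries of a mouse summed, Spry2 (-3.83) and Dusp4 (-2.10) were again the genes called. That is 2 of the 8 genes beside 23.9% of all genes, so the count itself is near the share of all genes. Dusp2 (0.76, SE 0.335) was called higher, at 1.19, without Cell-TRAP replicate 1, and marker scaling brought Dusp5 to a call at -1.003.

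Against Tissue-TRAP, which these contrasts share as control, the sorted groups had 4 genes called higher (25.9%) and 4 lower (36.9%). Dusp1, Dusp6, Dusp2 and Spry1 were at 6.59, 3.92, 3.55 and 3.02 (Dusp2 again with no pass of the filter through Tissue), and Spry2, Dusp4, Dusp5 and Dusp10 at -5.34, -4.95, -2.73 and -2.24. Dusp4 passed the filter here only through Tissue and Cell. In this contrast DESeq2 called 8 of 8 neuronal, 8 of 8 astrocyte and 4 of 4 mural markers lower. It called 6 of 8 endothelial markers lower and 2 higher, and 9 of 12 microglial markers higher. Their part in these values was not tested. Scaled to the microglial markers, Spry1 was at 0.66 and not called. That left 7 of the 8 genes called, beside 82.4% of all genes. Among the 4 sort methods no difference was called for the 8 genes in TRAP (0 called beside 4.17% of all genes; smallest adjusted p = 0.276, for Dusp1). None of the genes reached an unadjusted p under 0.05 in that test, where the smallest was 0.130, and DESeq2 called 0, although Dusp1 passed its p threshold (adjusted p = 0.0601, largest log2 difference between sorts 0.32). Some mice gave libraries to a pair of these sorts, which that test did not use. With the mouse as a block, the differences within those pairs gave 0 called genes (smallest adjusted p = 0.218, for Dusp1).

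In Input, Dusp1, Dusp2, Dusp6 and Spry1 were higher in CPM, and Dusp4, Dusp10 and Spry2 lower, in the sorted groups than in the unsorted suspension. Dusp1 lay between 1369 and 2490 CPM in the 16 sorted Input libraries, against 274, 545, 389 and 353 CPM in Cell-Input, and these ranges did not overlap. Sorted Input against Cell-Input gave 4 of the 8 genes called higher (17.1% of 15750 genes) and 3 lower (34.7%). Dusp1 was at 2.25 (SE 0.157), Dusp2 at 2.26 (SE 0.408), Dusp6 at 1.92 (SE 0.165) and Spry1 at 1.46 (SE 0.151). Spry2 was at -5.57 (SE 0.201), Dusp4 at -3.70 (SE 0.339) and Dusp10 at -2.05 (SE 0.186). Dusp5 (-0.74, SE 0.348) was called, at -1.01, without Cell-Input replicate 3. Spry2 was at 55.6, 55.1, 72.8 and 67.7 CPM in Cell-Input and between 0.307 and 3.33 CPM in the sorted Input libraries. Of the markers of cells other than microglia and border macrophages, all those tested were called lower after sorting: 8 astrocyte (median log2 fold change -7.49), 6 oligodendrocyte (-7.73), 3 oligodendrocyte progenitor (-5.57), 8 neuronal (-6.04), 8 endothelial (-5.18) and 4 mural (-5.28). Their part in the fall of these genes was not tested. Microglial markers summed to 6813 to 8664 CPM in Cell-Input and to 30244 to 55175 CPM after sorting. Relative to 1000 CPM of those markers, Dusp1 was at 48.6 CPM in Cell-Input and between 36.8 and 43.6 CPM on average in the sorted groups, Dusp6 at 30.3 and between 18.3 and 23.2 CPM, and Spry1 at 3.25 and between 1.38 and 1.72 CPM. The means of these 3 genes were lower after sorting on that scale, as is any gene that rose less than the marker sum. No test was run on it. Dusp1 overlapped between Cell-Input (40.2 to 62.9 CPM) and each of the sorts, whereas Dusp6 and Spry1 did not. Dusp2 was at 0.267 CPM in Cell-Input and between 0.1199 and 0.319 CPM after sorting. Dusp4 passed the filter in Input only through Tissue and Cell.

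Cell-Input against Tissue-Input gave 3 genes called higher (28.5%) and 1 lower (17.5%). Dusp1 was at 3.62 (SE 0.188), Dusp6 at 2.98 (SE 0.197) and Spry1 at 1.99 (SE 0.188), and Dusp5 was at -1.35 (SE 0.441). On the scale of the markers, per 1000 CPM of them, Dusp1 (65.8 CPM in Tissue-Input and 48.6 CPM in Cell-Input), Dusp6 (64.7 and 30.3 CPM) and Spry1 (13.5 and 3.25 CPM) had lower means in the suspension. The ranges overlapped for Dusp1 (57.6 to 70.99 and 40.2 to 62.9 CPM) but not for Dusp6 or Spry1, and no test was run on this scale. Neuronal markers were called lower in the suspension (8 of 8, median log2 fold change -2.92), and microglial (12 of 12, 3.81) and endothelial markers (8 of 8, 4.36) higher. Their part in these values was not tested. Dusp2, at 0.92 (SE 0.498), was called when Cell-Input replicate 2 or 4 was left out (1.04 and 1.05). Across the 4 sorts in Input, only Spry2 was called, 1 of 8 beside 7.42% of all genes (largest log2 difference between sorts 1.44, adjusted p = 0.0834). DESeq2 did not call it (adjusted p = 0.230), nor did the test with the mouse as a block (largest difference within shared mice 1.28, adjusted p = 0.679), its difference was 2.07 without autoMACS to Tyto replicate 3, and it lost its call without any of 6 libraries: autoMACS to Tyto replicate 1 or 2, Tyto replicate 1, 2 or 3, or FACSAria replicate 3.

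**Figure D4:**
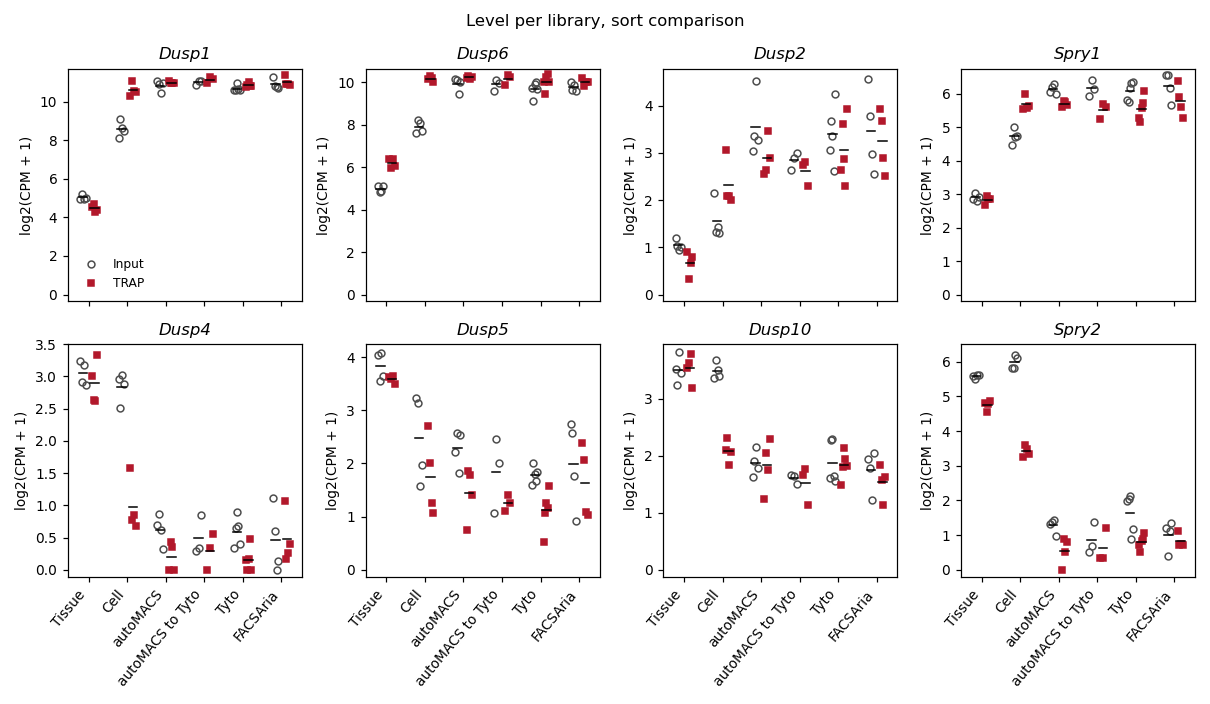
Level of each of the 8 genes, as log2(CPM + 1), in every library of the sort comparison, with a point per mouse (open circles for Input, red squares for TRAP) and a bar at each mean. Dusp1 in TRAP lies between 1244 and 2625 CPM in the suspension and in every sort, and Spry2 falls to 3.33 CPM or less in every sorted library of either fraction.

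The rest of the pathway was described with lists. Of the other MAP kinase phosphatases (Dusp7, Dusp8, Dusp9, Dusp16), 3 of 4 were tested in TRAP of the cell preparation comparison, and with against without inhibitors 0 were called (0.632% of all genes were lower), with a median log2 fold change of -0.06. Of the other Sprouty and Spred genes, relatives that also restrain Ras to ERK signalling, 4 of 5 were tested and 0 were called (median 0.24). Of 23 kinases and Ras proteins of the cascade, 22 were tested and 0 were called (median 0.06). At an unadjusted p under 0.05 these lists held 0, 0 and 2 genes, and DESeq2 called 0 in each. Among 10 ERK-responsive transcripts 0 were called higher and 4 lower, with a median of -0.79. These were the transcription factor genes Fos (-7.95, SE 0.369), Egr1 (-6.96, SE 0.289) and Myc (-1.12, SE 0.183) and the early-response gene Ier3 (-3.76, SE 0.216). DESeq2 called 5 lower, of the 9 to which it gave an adjusted p. In Input, Fos (-6.23), Egr1 (-4.89) and Ier3 (-1.33) were called lower.

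In Cell-TRAP (-) Inhibitors against Tissue-TRAP, 8 of the 10 ERK-responsive transcripts were called higher and 2 lower, beside 22.3% and 30.8% of all genes, with a median of 1.97. Fos was at 7.31 (SE 0.358), Egr1 at 4.76 (SE 0.259) and Ier3 at 3.73, followed by Epha2 (2.60), Myc (2.34), Etv4 (1.61), Etv5 (1.24) and Ccnd1 (1.11), and Epha4 (-2.93) and Phlda1 (-2.29) were the lower ones. Of the Sprouty and Spred relatives, Spred1 was called higher (1.13), and Spred3 (-4.56), Spry4 (-2.60) and Spred2 (-1.63) lower, the side of Spry2. Dusp8, a phosphatase abundant in neurons, was the one phosphatase of its list called lower (-3.91). Of the 22 cascade genes, 2 were called higher and 10 lower (median -0.55), shares to be read against the same 22.3% and 30.8% of all genes, led by Mapk10, the neuronal JNK, at -5.65, Mapk13 at -4.24, Mapk11 at -4.17 and Mapk9 at -2.22.

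In Dounce-TRAP against Cell-TRAP (-) Inhibitors, 1 ERK-responsive transcript was called higher (Epha4, 1.67, beside 20.7% of all genes) and 5 lower (8.02%), namely Fos (-9.13), Egr1 (-7.16), Ier3 (-4.58), Etv4 (-1.82) and Epha2 (-1.59). DESeq2 called 6 of them lower there. Of the relatives, Spred3 (1.82) and Dusp8 (1.10) were higher and Spry4 (-1.03) lower. In the sorted groups against Cell-TRAP, Spry4 (-5.13), Dusp8 (-1.31), Epha4 (-5.54) and Etv4 (-2.32) were called lower, beside Spry2 and Dusp4, and so were 4 of the 22 cascade genes, with Mapk10 at -6.28, beside 23.6% of all genes.

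Correlations between the 8 genes were computed across the 16 TRAP libraries of the cell preparation comparison. The pair of groups below, higher or lower in Cell-TRAP (-) Inhibitors than in Tissue-TRAP, was itself taken from these libraries. The correlations therefore largely restate that split and are no separate support for it. Pearson correlations of log2(CPM + 1) between Dusp1, Dusp2, Dusp6 and Spry1 ran from 0.72 (Dusp2 with Dusp6) to 0.97 (Dusp1 with Spry1). Those between Dusp4, Dusp5, Dusp10 and Spry2 ran from 0.61 (Dusp4 with Dusp5) to 0.88 (Dusp5 with Dusp10). Between the groups every correlation was negative, from -0.76 (Dusp6 with Spry2) to -0.18 (Dusp2 with Dusp4). These are descriptions over libraries that share their preparation, mice and depth.

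The tested genes with the most similar pattern over those libraries were Jun (r = 0.989) and Fos (0.983) for Dusp1, Il1a (0.984) and Tnfaip3 (0.981) for Dusp6, and Ccl3 (0.984) and Nfkbid (0.984) for Spry1. Jun and Fos form the AP-1 factor, Il1a and Ccl3 encode a cytokine and a chemokine, and Tnfaip3 and Nfkbid encode regulators of NF-kB. For Dusp2 they were Rbm33 (0.959) and Ppp1r15a (0.935), the latter a regulatory subunit of the phosphatase that acts on eIF2. Spry2 went with Nbea (0.971) and Rimklb (0.966), Dusp4 with Trp53inp2 (0.982) and Cxx1c (0.980), Dusp5 with Myt1l and Ncoa7 (0.949 each), and Dusp10 with Zfp346 (0.963) and 1700048O20Rik (0.9503).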

How the data were processed

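RNA was sequenced from TRAP and Input of 80 libraries. Per the labels and the study's methods, reads were aligned with strand to mm10, duplicates were removed, and genes were quantified in Strand NGS. The deposited values used here are expected counts per gene (33.2% whole in the sort comparison, 20.8% in the cell preparation comparison), which were rounded to whole numbers. The 104 columns of normalized values, on the authors' log2 scale, were not used.

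Genes with more than 5 counts in every library of at least 1 group were tested with the edgeR (4.0.16, R 4.3.3) quasi-likelihood test after TMM scaling, with Benjamini-Hochberg adjustment over all genes of the set of libraries. A call required an adjusted p under 0.1 and a fold change over 2. SEs are the log2 fold change over the root of F, and intervals are normal 95% intervals. The sets were TRAP and Input of each comparison, each with all its groups, and, for TRAP against Input, Tissue with Cell and the suspensions without and with inhibitors. Alternatives were the size factors and the test of DESeq2 (1.42.0), no filter, at least 10 counts in every library, only the groups compared, each replicate left out, a block on the mouse, scaling to 12 microglial markers in TRAP, and an earlier table of 24 libraries. A mouse block among the sorts and sums of the sorted libraries of a mouse were added after seeing the data.

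Genes named are the 8 genes, every called gene of pathway lists of up to 10 genes, up to 4 of longer lists, and the 2 genes most correlated with each of the 8. Not every contrast of these lists is described. The genes and lists were chosen with earlier results of these data known. Some mice gave several libraries, and deviations from group means correlated within mice with a mean r of 0.0119 to 0.352. Between mice the mean r was -0.115 to -0.00402. Deviations cancel within a group, so those negative values follow from the values within mice and are no independent comparison. No pair of replicate libraries was identical. Intervals of pooled ratios cover counting error only.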

Additional observations from a re-analysis of the deposited data

Results flagged for a closer look

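Of 144 checks, 1 for each of the 8 genes in each group of 4 or 5 libraries, 15 found a library that lay far from the others. The nominal rate of about 1 in 20 holds for normally distributed values and independent checks. Scarce counts and genes measured in the same libraries do not meet this, so the number shows no excess over chance. In TRAP of the cell preparation comparison these were Dusp2 in Tissue replicate 1 (0.516 CPM, the lowest), Dusp4 in Dounce replicate 4 (0.893 CPM), Dusp5 in Dounce replicate 3 (9.32 CPM) and Spry2 in Cell (-) Inhibitors replicate 1 (9.57 CPM), all but the first being the highest of their groups. In its Input they were Dusp4 in Cell (-) Inhibitors replicate 4 (11.7 CPM, the highest), Dusp5 in Cell (+) Inhibitors replicate 4 (0.701 CPM, the lowest) and Dusp10 in Tissue replicate 2 (14.5 CPM, the highest).

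In TRAP of the sort comparison, the highest library stood apart for Dusp1 (2625 CPM) and Spry2 (1.17 CPM) in FACSAria replicate 1, for Dusp2 (7.42 CPM) and Dusp4 (2.00 CPM) in Cell replicate 1 and for Spry1 in Cell replicate 2 (62.9 CPM). In its Input it did so for Dusp1 in Tyto replicate 3 (1971 CPM), Dusp2 in Cell replicate 1 (3.44 CPM) and Dusp2 in autoMACS replicate 3 (22.1 CPM).

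The effect of the suspension against Tissue differed between TRAP and Input, by the interaction test of edgeR, for Dusp1 (2.64), Dusp2 (1.91), Spry1 (1.11), Dusp6 (1.05), Dusp4 (-2.41), Spry2 (-1.79) and Dusp10 (-1.64), in log2 units of TRAP minus Input. The effect of the inhibitors differed for Dusp1 (-2.42) and Spry1 (-1.37). The part of the changing cell content of Input in these differences was not tested.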

How the results depend on the processing

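Of 168 log2 fold changes, 168 kept direction and call without a filter on low counts and 164 with the size factors of DESeq2, as did 63 of 64 in the earlier table, 107 of 110 with only the groups compared and 157 of 163 in the DESeq2 test. Where a sign changed in these, neither value was called. With against without inhibitors in TRAP, DESeq2 gave an adjusted p to only 4 of the 8 genes, and Dusp2 was among those without one. It called 3 of those 4 there, beside 0.679% of all genes. Of 1888 values with a replicate left out, 1801 kept both, 22 gained and 27 lost a call, and 38 uncalled values changed sign. A count of called genes then changed by over 1.5 times only for the 4 sorts in Input, which ranged from 0 to 1. Requiring at least 10 counts in every library removed the scarce genes and left 4 of the 8 tested in TRAP. With the share of all genes called in parentheses, it then called 4 genes in Cell (-) Inhibitors (46.3%), 2 in Cell (+) Inhibitors (44.9%) and 2 in Dounce (45.4%) against Tissue, and 3 in Dounce against Cell (-) Inhibitors (18.4%). In the sort comparison it called 4 in Cell (42.8%) and 4 in the sorted groups (46.5%) against Tissue-TRAP, and 0 in the sorted groups against Cell-TRAP (4.30%). Spry2 and Dusp4, the genes called in the last contrast by the main fit, had been removed and were not tested. In Input, with 5 tested, it called 3 in Cell (-) Inhibitors (37.8%) and 0 in Dounce (45.5%) against Tissue, and 0 across the 4 sorts (3.04%), where the DESeq2 test also called 0. Here too the genes called in Dounce (Dusp2 and Dusp4) and across the sorts (Spry2) by the main fit had been removed. It called 4 in TRAP against Input of Cell (-) Inhibitors (38.6%).

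Scaling to the microglial markers called 7 genes in Dounce-TRAP against Tissue-TRAP (72.8% of all genes) and reversed 6 values. These were Dusp1 (-1.26), Dusp2 (-1.79), Dusp6 (-0.020) and Spry1 (-1.13) in Cell-TRAP (+) Inhibitors, and Dusp6 (-0.30) and Spry1 (-1.48) in Dounce-TRAP, each against Tissue-TRAP. That scaling moved the median over all genes to -2.22 and -1.83 log2 units in these contrasts.

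The mouse as a replicate block was fitted where groups shared mice, among the sorts only within the pairs of sorts that did. Of 95 values, 94 kept their call, and that of Spry2 across the sorts in Input was lost, leaving 0 genes there (1.60% of all genes). The block gave 4 called genes for the inhibitors in TRAP (1.12% of all genes) and 3 in Input (0.338%), 8 for Cell-TRAP against Tissue-TRAP of the sort comparison (54.9%), and 2 for the inhibitor interaction (0.322%). Sums per mouse of the sorted libraries kept the call of 24 of 24 values.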
